A study of Mus musculus with 8 samples.

Results

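The enteroendocrine genes described here are 10 genes of the hormone-producing cells of the gut lining, of 21308 genes tested on the arrays. They were chosen by name, though with earlier results of these data known. Sct, Cck, Gip, Gcg, Pyy, Nts, Sst and Ghrl encode peptide hormones, Chga encodes a secretory granule protein, and Tph1 encodes the enzyme that starts serotonin synthesis. Each of the 10 genes had 1 probe on the array, and each probe was well above background on all 8 arrays, so no gene was lost to the filter on dim probes.

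The 8 single-colour arrays measured total RNA of whole small intestine from C57BL/6J Min/+ mice, which carry a truncating mutation of the tumour suppressor gene Apc and form intestinal adenomas. All groups carry this allele, so no array shows the gut without it. The 4 groups, of 2 arrays each, were control males, control females, Western diet males and Western diet females. Control mice ate the unmodified semisynthetic AIN-93G diet. The Western diet was derived from it, with more fat and less fibre, vitamin D, calcium and folate, and its fat was 66.4% milk fat, the remaining 33.6% being oil of rapeseed and sunflower. Each array held RNA of 1 to 3 mice, the labels give the feeding as 18 months but no age, and nothing in them says that the arrays of a group came from different mice. The p-values therefore measure the spread between these arrays, part of which may be technical. The labels do not name the segment of small intestine that was sampled, or whether adenomas were included.

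Enteroendocrine cells are scattered singly among the absorptive cells of the epithelium and release hormones in response to nutrients. K cells make Gip and I cells make Cck mostly in the upper small intestine, whereas L cells, which make Gcg and Pyy, grow more frequent towards the ileum and colon. Nts is likewise a hormone of the lower small intestine, and Sct, Sst, Chga and Tph1 are found along the gut. In RNA of whole tissue, fewer cells of a type and less RNA per cell cannot be told apart.

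The promoters of the 4 hormone genes on which the results turn most are shown because Gip and Cck moved against Gcg between arrays, and Sct moved with Chga. RefSeq's table for GRCm38.p6 held promoters for all 10 genes, and the 250 bases before the annotated start are printed 5′ to 3′ on the gene's strand. They lie at chr11:96024295-96024544 on the plus strand (Gip), and on the minus strand at chr9:121495695-121495944 (Cck), chr2:62483654-62483903 (Gcg) and chr7:141279134-141279383 (Sct). Capitals mark matches on either strand to the E-box CANNTG, which factors such as Neurod1 bind, to TGACG, the core of the cyclic AMP response element, to the TATA box TATAAA, and to the GATA motif GATAA.
Gip: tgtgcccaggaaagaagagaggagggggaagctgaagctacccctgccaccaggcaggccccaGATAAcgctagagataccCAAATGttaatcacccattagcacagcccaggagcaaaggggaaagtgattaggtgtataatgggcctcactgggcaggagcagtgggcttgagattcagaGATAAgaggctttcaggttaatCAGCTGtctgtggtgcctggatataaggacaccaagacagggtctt
Cck: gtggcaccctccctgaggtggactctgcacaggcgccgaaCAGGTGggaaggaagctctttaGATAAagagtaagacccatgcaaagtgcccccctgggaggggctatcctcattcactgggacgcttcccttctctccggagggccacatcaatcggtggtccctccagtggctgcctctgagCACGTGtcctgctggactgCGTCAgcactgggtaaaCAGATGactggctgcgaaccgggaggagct
Gcg: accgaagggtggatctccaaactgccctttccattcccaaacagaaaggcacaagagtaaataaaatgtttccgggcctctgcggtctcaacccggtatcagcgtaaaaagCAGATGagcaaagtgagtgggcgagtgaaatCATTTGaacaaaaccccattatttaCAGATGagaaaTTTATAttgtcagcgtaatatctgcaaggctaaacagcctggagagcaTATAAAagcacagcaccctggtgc
Sct: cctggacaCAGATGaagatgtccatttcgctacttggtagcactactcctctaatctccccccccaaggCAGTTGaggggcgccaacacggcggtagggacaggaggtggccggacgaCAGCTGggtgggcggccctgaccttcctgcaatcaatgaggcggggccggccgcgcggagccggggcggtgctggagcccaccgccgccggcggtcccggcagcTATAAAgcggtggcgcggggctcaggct
The Gip promoter held 2 E-boxes and the other 3 promoters held 3 each. An E-box is common: 66.2% of 32841 promoters of the same length held at least 1, with a mean of 1.16. TGACG was matched only in Cck among these 4, and in 17.8% of all promoters. TATAAA was matched in Gcg and Sct, and in 12.4% of all. GATAA was matched in Gip and Cck, and in 22.6% of all. Guanine and cytosine made up 52.0% of the Gip, 60.0% of the Cck, 44.8% of the Gcg and 68.0% of the Sct sequence, with a median of 52.4% over all promoters. These matches describe letters and not bound sites.

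Some arrays stood apart or went against their labels. On Control female 2, 75.6% of probes were well above background, compared with 55.1% to 61.9% on the others, and its score on the first principal component was -146 while the others lay between -1.59 and 33.3. The library labelled Control female 1 carried Y-linked transcripts: Ddx3y measured -0.46 there, just above the range of the male arrays (-1.04 to -0.67), whereas the other female arrays measured -7.56 to -6.91. The name of its deposited file also refers to the other diet. The diet difference of each member over both sexes, and the count by diet, are therefore given with and without each of these arrays. The counts within females, between the diet effects and between the sexes include all arrays. The absorptive cell markers checked against the tissue label, such as Fabp2 and Vil1, were well above background on all 8 arrays. All values are log2 signal relative to the 75th percentile of the array, and because probes differ in efficiency they are compared between arrays and not between genes.

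No enteroendocrine gene was called different between the diets. The 10 differences, Western minus control averaged over the sexes, lay between -0.32 (Gip) and 0.18 (Tph1) on the log2 scale, folds of at most 1.25, and limma's Benjamini-Hochberg adjusted p was 0.995 or more for each. Of all 21308 genes, 0% passed the adjusted threshold of 0.05 for diet, with a smallest adjusted p of 0.125. At an unadjusted threshold of 0.05, 0 of 10 members passed, beside 4.27% of all genes. Control and Western arrays overlapped for every one of the 10 genes, while 0.864% of all genes were higher and 2.29% lower on the Western diet with no overlap. Of the 10 genes, 4 were higher and 6 lower, with a median of -0.10 beside -0.06 over all genes, of which 40.5% were higher. Without Control female 2, 5 were higher and 5 lower, with a median of 0.013 beside -0.028 over all genes. With the library labelled Control female 1 left out, 3 were higher and 7 lower, with a median of -0.086 beside -0.073. Scaling the arrays to their medians in place of the 75th percentile adds the same 0.37 to every gene, and 10 members were then higher and 0 lower, with a median of 0.27 beside 0.31 over all genes. Relative to the median gene, 4 members lay above and 6 below under both scalings.

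**Figure D1:**
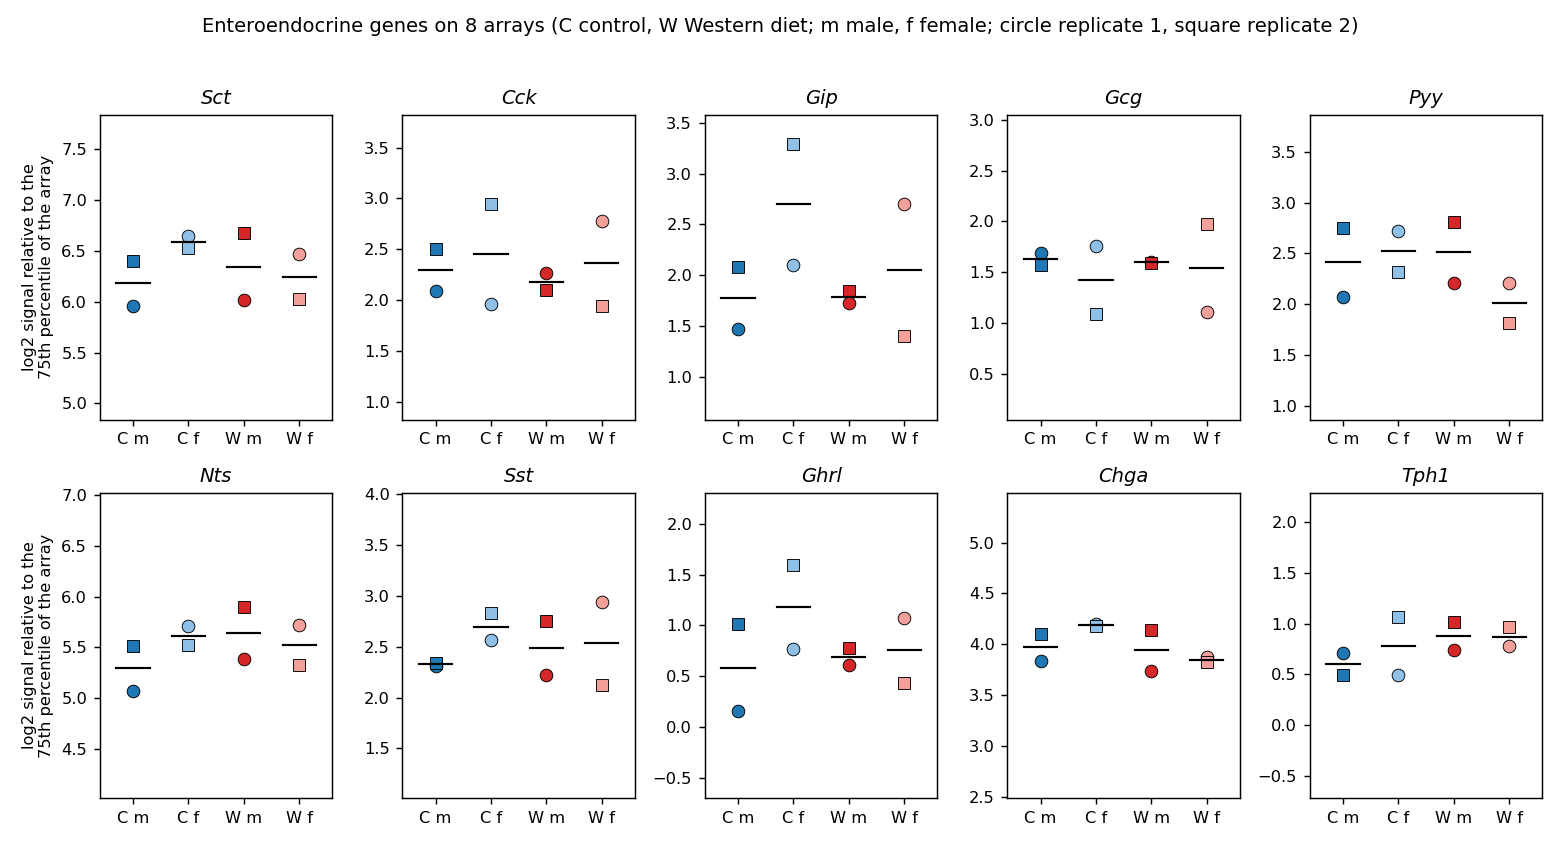
Log2 signal relative to the array's 75th percentile (y axis) of the 10 genes in the 4 groups (x axis); circles are replicate 1, squares replicate 2 and lines group means of 2 arrays. Gip ranged from 1.40 on Western female 2 to 3.29 on Control female 2, whereas Chga stayed between 3.74 and 4.20.

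Gip encodes the incretin of K cells, which raises insulin release after a meal. It measured 1.47 and 2.08 in control males, 2.10 and 3.29 in control females, 1.73 and 1.84 in Western males, and 2.70 and 1.40 in Western females. The highest array was Control female 2 and the lowest Western female 2, and the arrays of each female group lay over 1 log2 unit apart. The diet difference was -0.32 ± 0.40 (SE), with a 95% confidence interval of -1.30 to 0.66. It was -0.02 without Control female 2, 0.0072 without Western female 2, -0.64 without Western female 1 and -0.61 with the library labelled Control female 1 left out.

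Cck encodes cholecystokinin, which triggers gallbladder contraction and pancreatic secretion in response to fat and protein. Its values were 2.09 and 2.50 in control males, 1.96 and 2.94 in control females, 2.26 and 2.10 in Western males, and 2.78 and 1.94 in Western females. Control female 2 and Western female 1 were highest and Western female 2 lowest, the same arrays as for Gip. The diet difference was -0.10 ± 0.30 (SE; 95% interval -0.85 to 0.64), and it was positive without Control female 2 (0.14) or Western female 2 (0.10). With the library labelled Control female 1 left out it was -0.35. Ghrl encodes ghrelin, made mainly in the stomach and by few cells of the small intestine. It ranged from 0.15 to 1.59 on control arrays (median 0.89) and from 0.44 to 1.07 on Western arrays (median 0.69). The ranges overlapped, with a difference of -0.16 ± 0.30 (SE; 95% interval -0.91 to 0.59), which became 0.05 when Control female 2 or Control male 2 was left out, -0.38 without Control male 1 and -0.37 without the library labelled Control female 1. The summed signal of 6 measured stomach markers was 0.632 times the 75th percentile on Control female 2, 0.810 on Western male 1 and 0.350 to 0.460 on the others. On Control female 2, where 75.6% of probes were well above background, marker lists of other tissues were high as well. The part of the stomach markers in the Ghrl values was not tested.

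Gcg encodes proglucagon, from which L cells cut glucagon-like peptides 1 and 2. It measured 1.69 and 1.57 in control males, 1.76 and 1.09 in control females, 1.60 and 1.59 in Western males, and 1.11 and 1.97 in Western females. Here Control female 2 and Western female 1 were the lowest arrays and Western female 2 the highest, the reverse of Gip and Cck. The diet difference was 0.04 ± 0.26 (SE; 95% interval -0.58 to 0.67). Without Control female 2 it was -0.12 and without Western female 2 it was -0.17, whereas it was 0.26 without Western female 1 and 0.21 with the library labelled Control female 1 left out. The Gcg probe was printed in 10 spots per array, whose standard deviation on the log2 scale lay between 0.03 and 0.11. Between arrays it was 0.30 over all 8 and 0.45 over those labelled female, larger than between spots. Over the male arrays it was 0.05, no larger than the 0.05 to 0.07 between spots of those arrays. Gcg is also a gene of the pancreas, and 7 measured pancreas markers summed to 26.0 times the 75th percentile on Western female 2 and 10.6 on Western female 1, where Gcg was high and low, but to 15.5 on Control female 2 and 22.6 on Western male 2. These sums rest mostly on the brightest of the 7 markers. The mean deviation of the 7, in which each gene weighs alike, was -0.06 on Western female 2 and -0.35 on Western female 1. It was highest, at 0.66, on Control female 2, where Gcg was lowest. On that array 75.6% of probes were well above background, and this height was not particular to the pancreas markers. Mean deviations there were also high for the stomach markers (0.71) and the enteric neuron and glia markers (1.38), but not for 10 lower intestinal genes (-0.12). The part of these markers in the Gcg values was not tested.

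Pyy encodes peptide YY, which slows gastric emptying and reduces food intake. It measured 2.07 and 2.75 in control males, 2.72 and 2.32 in control females, 2.21 and 2.81 in Western males, and 2.21 and 1.82 in Western females. Both Western female arrays lay below both control female arrays, whereas the male groups overlapped. The diet difference over both sexes was -0.21 ± 0.25 (SE; 95% interval -0.82 to 0.41), and it lay between -0.38 without Control male 1 and -0.035 without Control male 2 when 1 array was left out. It was -0.31 without Control female 2 and -0.10 with the library labelled Control female 1 left out. Nts encodes neurotensin, which is released after fat intake. Its values were 5.07 and 5.52 in control males, 5.71 and 5.52 in control females, 5.39 and 5.90 in Western males, and 5.72 and 5.33 in Western females. The diets overlapped, and the difference was 0.13 ± 0.21 (SE; 95% interval -0.38 to 0.64). Leaving out 1 array gave values from 0.0026 (without Western male 2) to 0.26 (without Western male 1), with 0.081 without Control female 2 and 0.18 with the library labelled Control female 1 left out.

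Sct encodes secretin, which stimulates bicarbonate release from the pancreas. It measured 5.96 and 6.40 in control males, 6.65 and 6.53 in control females, 6.02 and 6.68 in Western males, and 6.47 and 6.03 in Western females. The diets overlapped, although both Western females lay below both control females. The difference was -0.09 ± 0.23 (SE; 95% interval -0.64 to 0.46), or -0.12 without Control female 2 and -0.058 with the library labelled Control female 1 left out. It ran from -0.25 without Western male 2 to 0.077 without Western male 1. Sst encodes somatostatin, an inhibitor of the release of other gut hormones that is also made by enteric neurons. It ranged from 2.31 to 2.83 on control and from 2.13 to 2.94 on Western arrays, and its difference was 0.00 ± 0.24 (SE; 95% interval -0.59 to 0.59). It was 0.067 without Control female 2, -0.067 with the library labelled Control female 1 left out, -0.20 without Western female 1 and 0.20 without Western female 2. The list of enteric neuron and glia markers had 9 of 14 listed genes measured. Of these, 4 were well above background on control arrays only and passed the filter through them, so no sum by diet is given. By array, the summed linear signal was 1.12 times the 75th percentile on Control male 1 and 0.876 on Control female 2. It was 0.298 to 0.406 on the other arrays. On Control female 2, where 75.6% of probes were well above background, marker lists of other tissues were high as well. The part of the enteric neuron and glia markers in the Sst values was not tested.

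Chga encodes chromogranin A, a granule protein shared by many enteroendocrine cells. It measured 3.83 and 4.11 in control males, 4.20 and 4.18 in control females, 3.74 and 4.14 in Western males, and 3.88 and 3.82 in Western females. The male groups overlapped and both Western females lay below both control females. The diet difference of -0.19 ± 0.16 (SE; 95% interval -0.58 to 0.21) was -0.19 without Control female 2 and -0.18 with the library labelled Control female 1 left out, but -0.085 without Western male 1, -0.12 without Control male 2 and -0.29 without Western male 2. Tph1, the enzyme of enterochromaffin cells and mast cells, ranged from 0.49 to 1.07 on control and from 0.74 to 1.02 on Western arrays. Its difference was 0.18 ± 0.19 (SE; 95% interval -0.28 to 0.65), which was 0.33 without Control female 2 and 0.04 with the library labelled Control female 1 left out. Of 9 measured mast cell markers, 2 were well above background on Western arrays only and passed the filter through them, so no sum by diet is given. By array, their summed signal was 4.40 times the 75th percentile on Western male 1 and 2.085 on Western male 2. It was 0.767 to 1.63 on the other arrays. The part of these markers in the Tph1 values was not tested.

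**Figure D2:**
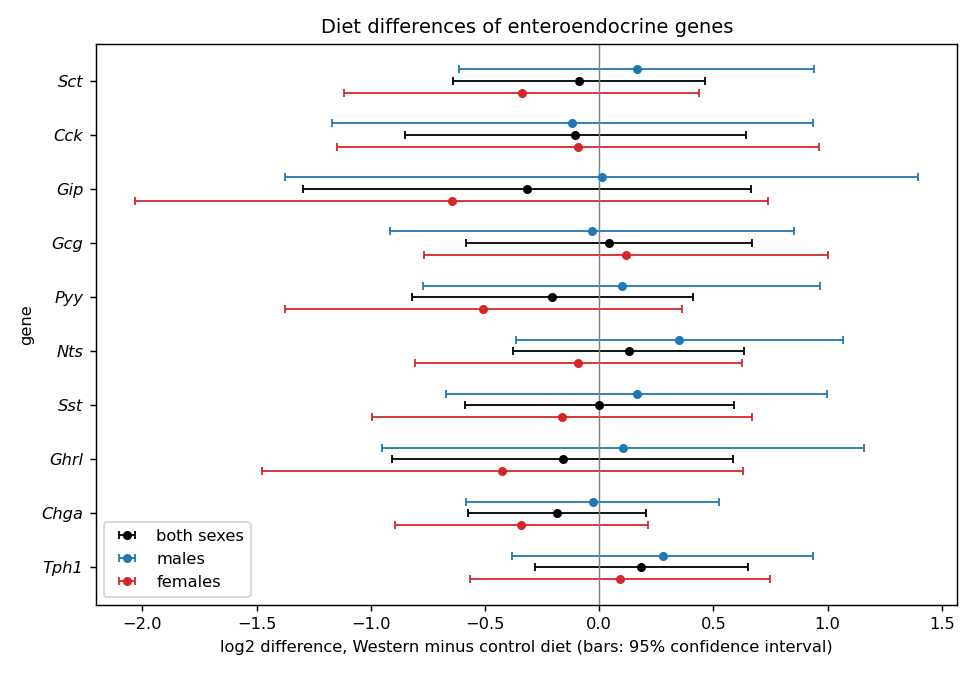
Log2 difference, Western minus control diet (x axis), of the 10 genes (y axis) over both sexes and within each sex; bars are 95% confidence intervals from limma. Every interval spans 0, and the widest over both sexes is that of Gip, from -1.30 to 0.66.

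Within females, 8 of the 10 genes were lower on the Western diet and 2 were higher, with a median of -0.25 beside -0.11 over all genes, of which 36.8% were higher. Scaled to medians, 9 were higher and 1 was lower, beside 79.9% of all genes higher, and under both scalings 4 lay above the median gene. No gene passed the adjusted threshold, as for 0% of all genes, and 0 of 10 passed at the unadjusted threshold, beside 5.09% of all. The groups did not overlap for Sct (-0.34 ± 0.32, SE), Pyy (-0.51 ± 0.36) and Chga (-0.34 ± 0.23), all lower on the Western diet, with limma's adjusted p between 0.954 and 0.966. This was 3 of 10 genes, beside 21.8% of all genes that were lower in Western females with no overlap. The difference for Gip was -0.65 ± 0.57 (SE), with overlapping arrays. It depended on every female array, being -0.051 without Control female 2, 0.0030 without Western female 2, -1.30 without Western female 1 and -1.24 with the library labelled Control female 1 left out. Leaving out 1 array gave -0.71 to -0.31 for Pyy, -0.56 to -0.12 for Sct and -0.37 to -0.31 for Chga.

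Within males, 7 of the 10 genes were higher and 3 lower, with a median of 0.10 beside -0.0093 over all genes, of which 48.7% were higher. Scaled to medians, all 10 were higher, beside 68.3% of all genes, and 7 lay above the median gene under both scalings. None passed the adjusted threshold (0% of all genes), and 0 of 10 passed at the unadjusted threshold, beside 1.3% of all genes. Only Tph1 did not overlap, at 0.71 and 0.49 in control and 0.74 and 1.02 in Western males, a difference of 0.28 ± 0.27 (SE), beside 12.1% of all genes that were higher with no overlap. Nts differed by 0.35 ± 0.29 (SE), with overlapping arrays. Leaving out 1 male array gave 0.096 (without Western male 2) to 0.60 (without Western male 1) for Nts, and 0.14 to 0.42 for Tph1, also with these arrays left out. The difference between the diet effects, females minus males, was positive for 2 and negative for 8 genes, with a median of -0.38 beside -0.14 over all genes. Scaled to medians it was positive for 6 and negative for 4, and 2 lay above the median gene under both scalings. It passed the adjusted threshold for none of the 10 genes and 0% of all, and the unadjusted threshold for 0 of 10, beside 1.62% of all.

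Between the sexes, female minus male averaged over the diets, 8 genes were higher and 2 lower in the samples labelled female, with a median of 0.13 beside 0.075 over all genes, of which 62.3% were higher. Scaled to medians, 2 were higher and 8 lower, beside 26.6% of all genes higher, and 7 lay above the median gene under both scalings. None was called, as for 0% of all genes, and 0 of 10 passed at the unadjusted threshold, beside 3.85% of all. Males and females overlapped for all 10 genes, while 1.96% of all genes were higher and 1.03% lower in females with no overlap. Gip differed by 0.59 ± 0.40 (SE; limma's adjusted p = 0.906) and Ghrl by 0.33 ± 0.30 (SE). Without Control female 2 these were 0.30 and 0.12, and with the library labelled Control female 1 left out they were 0.89 and 0.54. Over all single arrays left out, Gip ranged from 0.27 to 0.92 and Ghrl from 0.11 to 0.54. Because the library labelled Control female 1 carried Y-linked transcripts, the direction of these differences rests on labels that the data contradict for 1 array.

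Between arrays, some members varied together and Gcg varied against some of them, within the groups labelled female as well as across groups. Over 8 arrays, Gip correlated with Ghrl (Pearson r = 0.94) and Cck (0.88), and Cck with Ghrl (0.84). Gcg ran against them, with r = -0.94 to Cck, -0.90 to Gip and -0.79 to Ghrl. Sct varied with Nts (0.90), Chga (0.87) and Pyy (0.79). Gcg and Pyy, which L cells make together, had r = -0.11. These values describe 8 arrays that share the scaling to the 75th percentile, and they carry no p. Much of the first group rested on 2 arrays: without the 2 arrays farthest from the median of the first gene of a pair, r was 0.42 for Cck with Gip, 0.53 for Cck with Ghrl, -0.54 for Gip with Gcg and -0.73 for Cck with Gcg. It was 0.87 for Gip with Ghrl.

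**Figure D3:**
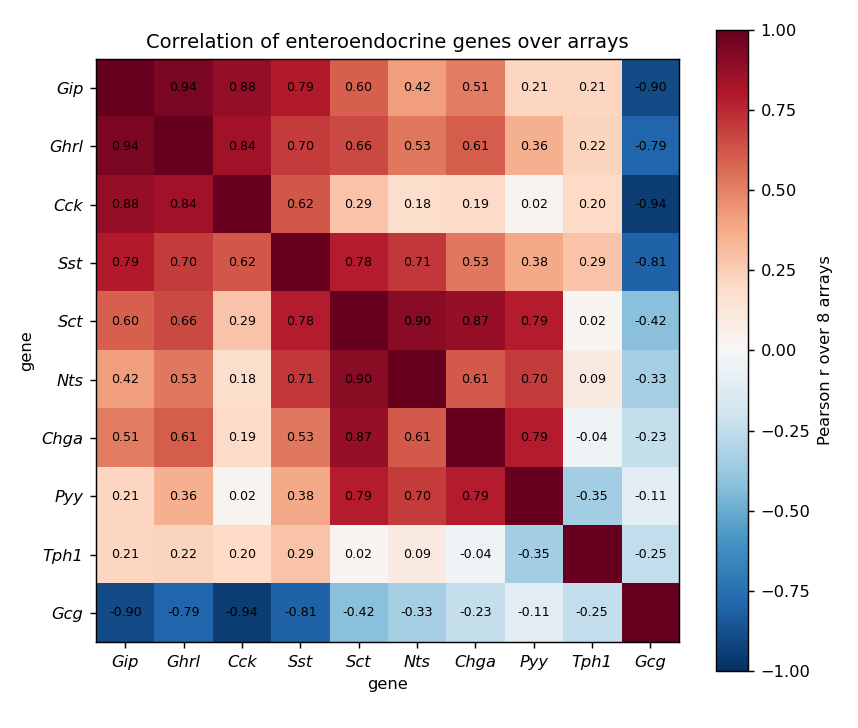
Pearson r over 8 arrays between each pair of the 10 genes (both axes), on a colour scale from -1 (blue) to 1 (red). Gip, Ghrl and Cck form a block with r of 0.84 to 0.94, and Gcg is at -0.79 to -0.94 to them.

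The correlations of Gcg with Cck and Gip depended on the scaling of the arrays, and the cause was not tested. With arrays scaled to their medians, r between Cck and Gcg became 0.22, and with Control female 2 left out as well it was -0.52. For Gip and Gcg the corresponding values were -0.28 and -0.38. Leaving out the library labelled Control female 1 alone gave -0.94 for each pair. On deviations from the group means, which remove diet and sex as labelled, r was -0.95 for Cck and -0.97 for Gip. With 2 arrays per group, the 2 deviations of a group mirror each other. These r therefore rest on 1 difference per group, and the differences were largest in the groups labelled female. For Gip they were 1.19 and 1.30 in control and Western females, but 0.60 and 0.11 in control and Western males. For Gcg they were 0.665, 0.86, 0.11 and 0.013 in the same order. Among 12395 genes measured on all arrays, 12 (0.0968%) had an r with Gcg at or below that of Cck, and 30 (0.242%) at or below that of Gip.

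A balance between genes within an array is the difference of their deviations from their means over 8 arrays, and array scaling cancels in it. For Gip minus Gcg it was -0.74 and -0.03 in control males, -0.18 and 1.67 in control females, -0.40 and -0.28 in Western males, and 1.06 and -1.10 in Western females. The Western female arrays thus lay at opposite ends, and only Control female 2 lay above Western female 1. For Cck minus Gcg the corresponding values were -0.37 and 0.16, -0.57 and 1.08, -0.12 and -0.27, and 0.89 and -0.80. Control female 2 and Western female 1 were again the highest and Western female 2 the lowest. Pyy minus Chga stayed between -0.38 and 0.30.

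The same comparison was made for lists of genes known to be higher in upper or lower small intestine. Mean deviation of 12 upper intestinal genes minus that of 10 lower intestinal genes was -0.39 and -0.38 in control males, -0.28 and 0.56 in control females, -0.18 and -0.09 in Western males, and 0.60 and 0.16 in Western females. It was high on Control female 2 and Western female 1, where Gip and Cck were high and Gcg low, but it was above 0 on Western female 2, where Gip minus Gcg was lowest. The part of the sampled position in these values was not tested.

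**Figure D4:**
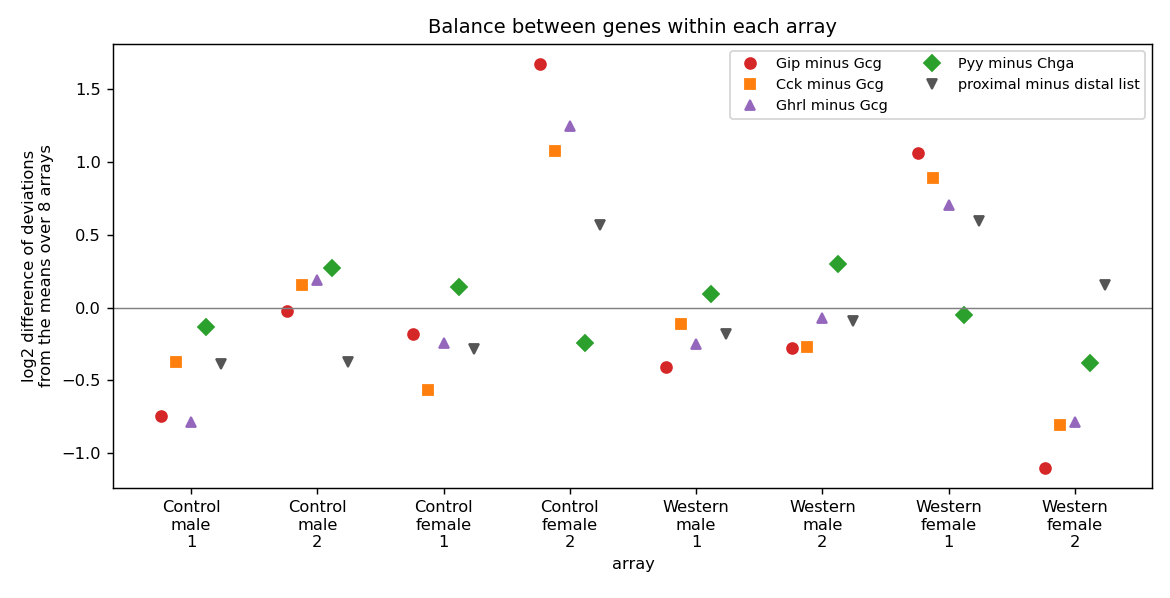
Log2 balance between genes within each array (y axis) for the 8 arrays (x axis): Gip, Cck and Ghrl minus Gcg, Pyy minus Chga, and the upper minus the lower intestinal list. Gip minus Gcg reaches 1.67 on Control female 2 and 1.06 on Western female 1, and falls to -1.10 on Western female 2.

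Among the 12395 genes, the median range over the 8 arrays was 0.77 log2 units. The range of Gip was larger than that of most genes, and 7.75% exceeded it. For Ghrl 15.4%, for Cck 32.1% and for Chga 85.4% of genes had a larger range, so the granule gene was among the steadier genes on the arrays. The genes whose course was most like that of Gip, by Pearson r over 8 arrays, were Tmem168 (0.97), Olfr578 (0.97) and Adh6a (0.96). For Gcg they were Mcm7 (0.98), Mgat4b and Ncl, and for Sct they were Syngr2 (0.99), Slc39a4 and Mmadhc.

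Other genes of the enteroendocrine system were taken from lists by role, and for diet none of the genes in them passed the adjusted threshold, as for 0% of all genes. The level of zero depends on scaling: scaled to medians, the median of all genes was 0.31 in place of -0.06, and 66 of 21308 genes were called. The counts below are therefore of genes above the median of all genes, which is the same under both scalings. Of the 10 members, 4 were above it.

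Of 15 other gut hormone genes 12 were measured. Of these, 4 were well above background on control arrays only and passed the filter through them, so no count or median of the list is given for the diets. The brightest were the guanylate cyclase activators Guca2b (-0.01 ± 0.29, SE) and Guca2a (-0.11 ± 0.21), and the substance P precursor Tac1 (0.11 ± 0.21).

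Of 18 genes for prohormone processing and granules, 6 lay above the median gene and the list median was -0.17. The granule fusion genes Cplx2 and Snap25 differed by -0.47 ± 0.24 and -0.34 ± 0.29 (SE), whereas Ddc, which makes serotonin from the product of Tph1, differed by 0.73 ± 0.25. Of 16 measured transcription factors of 20 listed, 13 lay above the median gene, with a list median of 0.06, and Foxa1 and Foxa2 differed by 0.09 ± 0.15 and 0.01 ± 0.22 (SE). Of 11 measured nutrient receptors and sensors 4 lay above it, with Ffar2, a receptor for short-chain fatty acids, at -0.55 ± 0.49 and the channel Trpm5 at 0.05 ± 0.35. Of 14 measured receptors and genes that remove hormones or serotonin 3 lay above it, and 1 of the 14 passed the filter through control arrays only. Among these, Dpp4, the protease that cuts incretins, differed by -0.09 ± 0.17 (SE) and Sstr5, a somatostatin receptor, by -0.07 ± 0.24. Dpp4 is also among the absorptive cell markers used here and Trpm5 among the tuft cell markers. In whole tissue their signal is therefore not that of enteroendocrine cells alone. For the other genes named from these lists, such as Guca2b, Guca2a, Ddc and Ffar2, the cells that make the signal were not tested.

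**Figure D5:**
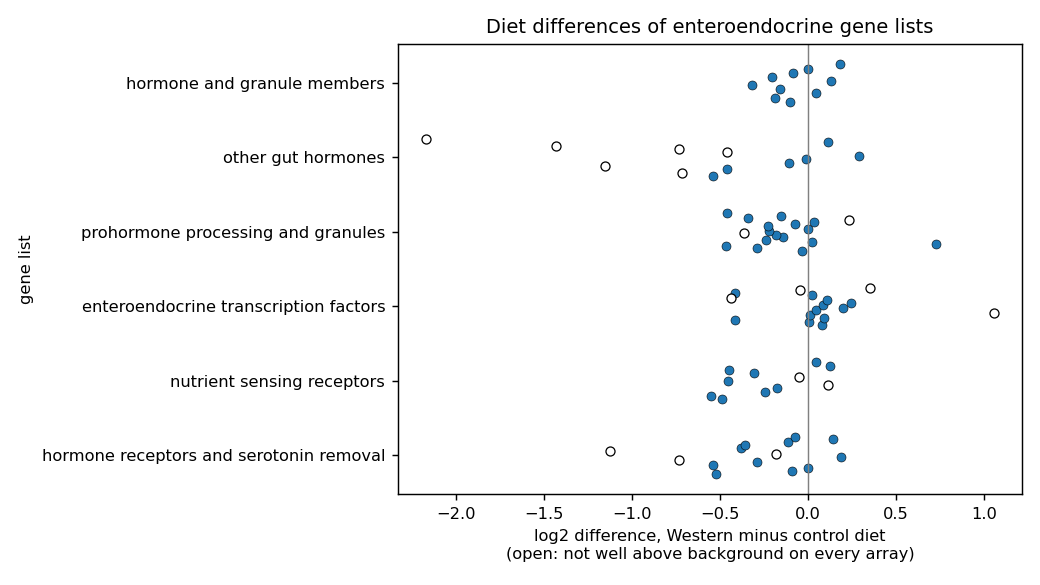
Log2 difference, Western minus control diet (x axis), of each measured gene (points) in 6 lists of enteroendocrine genes (y axis); open points are genes not well above background on every array. The 10 members lie between -0.32 and 0.18, and 6 of the 12 other gut hormone genes are open points. Of these 12, 4 passed the filter through control arrays only, as did 1 gene of the hormone receptor list. The spread of the other gut hormone points towards negative values is therefore not read as a diet result.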

How the data were processed

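Each deposited value is a linear intensity of 1 spot after background subtraction by Feature Extraction 10.7.3.1 (array design 026655), per the file headers. Steps between arrays were not given in the sources used here. Control spots (1377) and outlier spots (94 to 216 per array) were left out and spots of a probe averaged. No spot was saturated. Values are log2 signal minus the array's 75th percentile, which lay between 486 and 902 in raw signal, and the number of arrays limits the precision. Probes were named through a RefSeq table by accession without version (26412 of 39429). The filter required a probe to be well above background on 2 or more arrays, and the probe with the highest mean signal stood for a gene, which gave 21308 genes.

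Group means over all 8 arrays were modelled in limma 3.58.1 (R 4.3.3), with 4 residual and 2.01 prior degrees of freedom and Benjamini-Hochberg adjustment over all genes at 0.05. The deposited "well above background" and outlier marks were used as the files give them. The script was tested on simulated data. The normexp alternative used the median spot signal, since the mean signal planned for it was not among the columns. The other alternatives were other normalizations, filters and probe rules, blocks for replicate number, slide and scan day, and leaving out each array. Deviations from group means, and median scaling without Control female 2, were added after seeing the data.

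The members and gene lists were chosen with earlier results of these data known. The text names every member, the 3 genes most like a member by Pearson r, and up to 3 genes of each list with the highest mean signal; 1 such gene is not reported here. Fabp2, Vil1 and Ddx3y, also named by this rule, served as checks of the labels.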

Additional observations from a re-analysis of the deposited data

How the results depend on the processing

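The count of members called stayed at 0 under every alternative and comparison run, and limma's adjusted p for their diet effects did not pass 0.05. Median scaling adds the same 0.37 to every gene's diet difference and left each member unchanged relative to the median gene. Against 0, it turned the difference positive for Sct (0.28), Cck (0.27), Gip (0.054), Pyy (0.17), Ghrl (0.21) and Chga (0.19), and in females for Sct (0.25), Pyy (0.084) and Chga (0.25). Within slide 1, which held replicate 1 of each group, Cck (0.49), Gip (0.43), Ghrl (0.38) and Gcg (-0.36) changed sign, averaged over both sexes. In the females of slide 1 alone they were 0.815, 0.60, 0.30 and -0.65. On slide 3, which held females of both diets, the female differences were -0.999, -1.89, -1.15 and 0.88. Each female value sets 1 array against 1 array. The control array was the library labelled Control female 1 on slide 1 and Control female 2 on slide 3. Sst was -0.030 with quantile normalization and -0.042 with scan day as a block. Leaving out 1 array at a time gave diet ranges of -0.20 to 0.20 for Sst, -0.25 to 0.077 for Sct, -0.38 to 0.055 for Ghrl, -0.35 to 0.14 for Cck, -0.17 to 0.26 for Gcg and -0.64 to 0.0072 for Gip, 0.0026 to 0.26 for Nts, -0.38 to -0.035 for Pyy, -0.29 to -0.085 for Chga, 0.041 to 0.33 for Tph1, and of -1.30 to 0.0030 for Gip in females. The correlation of Gcg with Pyy ranged from -0.27 to 0.35 in this way, was 0.69 with median scaling and 0.20 with median scaling without Control female 2, and that of Cck with Gcg became 0.22 with median scaling. The cause was not tested. The fit with the replicate block gave the same difference for Gip (-0.32) and called 0 genes. The main fit did not treat replicate numbers as pairs. The correlation of replicate deviations between groups was above 0.1 in 2 of 6 pairs (range -0.12 to 0.35). These 2 were control with Western males (0.35) and control with Western females (0.18). With 2 arrays per group, the values cannot decide whether replicate numbers pair the arrays of a sex. The printed 95% intervals show the precision of each difference with 2 arrays per group. They are not limits of detection at the adjusted threshold. In the main fit 0 of 21308 genes passed that threshold for diet, whatever the size of their difference. The smallest change that could have been called was not tested.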
